A study of Mus musculus with 24 samples.

Results

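The Ifit and Oas genes examined here are 10 interferon-induced antiviral effectors, Ifit1, Ifit2, Ifit3, Ifit3b, Oas1a, Oas1g, Oas2, Oas3, Oasl1 and Oasl2, chosen by gene symbol from the 55421 genes in the tables. All 10 were present, and all 10 were among the 13847 genes that passed the filter on low counts. They were measured by poly(A) RNA sequencing in 24 libraries of hepatocytes that had been isolated by perfusion of the liver, low-speed washes and a Percoll gradient from aged C57BL/6J male mice. The labels number the libraries as replicates without naming the mouse of each, and each library is treated here as 1 animal. Mice were fed vehicle or encapsulated rapamycin (eRapa, an inhibitor of the kinase mTOR, at 42 ppm) from 4 months of age. At 18 months, 8 vehicle-fed mice stayed on the normal diet (ND+veh). For 9 weeks, 7 other vehicle-fed mice (HFD+veh) and 9 eRapa-fed mice (HFD+eRapa) received a diet that supplied 60% of calories as fat. No group received eRapa on normal diet, so the effect of the drug is seen here only on top of HFD, and rapamycin had been given for more than a year before the diet changed.

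Both families sit downstream of interferon. Interferon binds its receptor (Ifnar1 and Ifnar2 for type I), Janus kinases are activated, and a transcription factor complex that contains Irf9 enters the nucleus and binds interferon-stimulated response elements in the promoters of effector genes. Oas proteins bind double-stranded RNA and make short 2′-5′ linked oligoadenylates, a signal that leads to the breakdown of RNA in the cell, while Ifit proteins bind viral RNA ends and block their translation. In liver, hepatocytes, macrophages (Kupffer cells) and endothelial cells can all induce these genes.

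The 10 genes lie in 3 clusters of the mouse genome (GRCm38, the assembly of mm10). The Ifit genes occupy 99.3 kb at chr19:34550694-34650009, the Oas1, Oas2 and Oas3 genes 177 kb at chr5:120730333-120907521, and Oasl1 and Oasl2 41.0 kb at chr5:114896936-114937915. All are annotated as protein-coding. RefSeq promoter windows (GRCm38.p6, 250 bases before to 50 after the start) were at hand for 9 of the genes, and Oas2 had no entry. The core of the interferon-stimulated response element (GAAA, any 2 bases, GAAA, searched on both strands) was present in the windows of 6 of these 9 genes and of 3.99% of the 27025 genes in the table (3.44% of all 32851 windows). The matches are shown because the same letters recur between neighbouring genes whose transcripts are followed below, with the matched bases in capitals (runs that begin with TTTC are the element read on the other strand).

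Ifit1, + strand, chr19:34640773-34640825: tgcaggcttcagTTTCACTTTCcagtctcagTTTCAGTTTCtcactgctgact
Ifit3, + strand, chr19:34583361-34583428: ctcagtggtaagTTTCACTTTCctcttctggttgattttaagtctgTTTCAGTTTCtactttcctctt
Oas1a, − strand, chr5:120907518-120907557: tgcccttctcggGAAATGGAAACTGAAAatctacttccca
Oas3, − strand, chr5:120777713-120777746: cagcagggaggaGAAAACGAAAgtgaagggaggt

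Ifit3b carried the identical stretch to Ifit3 at chr19:34607757-34607824, and Oas1g the identical stretch to Oas1a at chr5:120887604-120887643. In Oas1a and Oas1g a pair of matches overlap in one run of capitals that ends 5 and 3 bases before the RefSeq start. The windows of Ifit2, Oasl1 and Oasl2 held no match to these letters. A second motif, TTCNNNGAA, which reads the same on both strands, was found in 2 of the 9 genes (Oas1a and Ifit2) and in 9.55% of all genes (8.30% of windows). A match describes the sequence and does not show that a factor binds there.

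Total counts ran from 17.7 to 25.9 M per library (M, units of 1000000), and all libraries carry the same batch label. Hepatocyte markers were abundant in every library (8 markers, summed 47413 to 157873 counts per M, CPM), but markers of other liver cells were present too. The summed CPM of 11 macrophage markers was 45.6 to 1278 in ND+veh (median 262), 177 to 4713 in HFD+veh (median 2538) and 14.6 to 1043 in HFD+eRapa (median 199). In such bulk samples, a change in the number of cells of a type cannot be told apart from a change in RNA per cell. ND+veh replicate 4 had the highest CPM of its group for all 10 genes, together with the lowest hepatocyte marker sum of its group (53824 CPM), and values without it are given below.

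The question of the first comparison was what HFD changes in aged hepatocytes. All 10 genes rose in HFD+veh relative to ND+veh, by a log2 fold change of 1.99 (Oas1a) to 3.63 (Ifit2), or 4.01- to 12.6-fold in mean CPM (edgeR quasi-likelihood test, adjusted p of 0.00435 to 0.0308). Of all genes tested, 16.0% were called higher. The median log2 fold change was 2.71 over the 10 genes and 0.05 over all genes tested. In 0 of the 10 genes, against 1.21% of all genes tested, did every HFD+veh animal exceed every ND+veh animal. Without ND+veh replicate 4 this held for 5 of the 10, and for 2.25% of all genes tested, and the log2 fold changes were 2.85 (Oas1a) to 4.44 (Oasl2), all called. Of the 7 HFD+veh animals, 3 or 4 exceeded every ND+veh animal, and all 7 exceeded the ND+veh median, except for Oas2, where 6 did. The calls depended on single libraries. Without HFD+veh replicate 6, Oas1a, Oas1g, Oas2, Oas3 and Oasl2 were not called (adjusted p of 0.0664 to 0.0794, edgeR), and without HFD+veh replicate 4, Oas1a, Oas1g, Oas2 and Oasl2 were not (0.0503 to 0.068). Without HFD+veh replicate 3, or ND+veh replicate 1, 2, 3, 5 or 7, between 1 and 3 of Oas1a, Oas1g and Oas2 lost their call (adjusted p of 0.0501 to 0.0714). With a score of immune markers as a covariate, 1 of the 10 was called. In that fit 589 of the 13847 genes tested were called higher, against 2218 without the score.

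The second comparison asked whether eRapa alters the state of hepatocytes under HFD. All 10 genes fell in HFD+eRapa relative to HFD+veh, by log2 fold changes of -2.08 (Oasl1) to -4.60 (Oas3), so that mean CPM was 4.22- to 24.5-fold lower (edgeR, adjusted p of 0.000698 to 0.00255). Of all genes tested, 21.1% were called lower. The median log2 fold change was -3.70 over the 10 genes and -0.04 over all genes tested. All 9 HFD+eRapa animals lay below the HFD+veh median in every one of the 10 genes. Oas1a, Oas1g and Oasl2 showed no overlap between these groups (1.29% of all genes tested were lower without overlap). Of the 10 genes, 7 had no overlap without HFD+veh replicate 5 (1.66% of all genes tested) and 5 without HFD+eRapa replicate 2 (1.65%). With a score of immune markers, or of endothelial, stellate cell and cholangiocyte markers, as a covariate, 1 of the 10 was still called. The log2 fold changes ran from -2.56 to -1.16 and from -2.25 to -0.57. In these fits 522 and 467 of the 13847 genes tested were called lower, against 2925 without a score. Both comparisons share the HFD+veh animals, so their opposite directions are not independent of each other.

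Last, eRapa-fed mice on HFD were compared with mice that had received neither. None of the 10 genes was called by edgeR (adjusted p of 0.0937 to 0.994, with 3 of 10 at an unadjusted p under 0.05), whereas 13.5% of all genes tested were called in either direction. DESeq2 called 1 of them, Oas1g, at a log2 fold change of -1.83 (adjusted p of 0.0406). Without ND+veh replicate 4, edgeR gave -0.63 for Oas1g (adjusted p = 0.593). With all libraries, 5 of the 9 HFD+eRapa animals lay above the ND+veh median of Oas1g. Fitted log2 fold changes ran from -0.01 (Oasl1) to -1.87 (Oas1g), with standard errors of 0.43 to 0.94. For Ifit1 and Oasl1, however, all 9 HFD+eRapa animals lay above the ND+veh median, and mean log2 CPM was 0.77 and 0.52 higher than in ND+veh. Without ND+veh replicate 4 the fitted log2 fold changes became 1.26 for Ifit1, 0.66 for Ifit3, 0.60 for Ifit3b and 0.83 for Oasl1. The rest of the 10 genes stayed negative, from -0.66 (Oas2) to -0.04 (Ifit2), and none of the 10 was called.

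**Figure D1:**
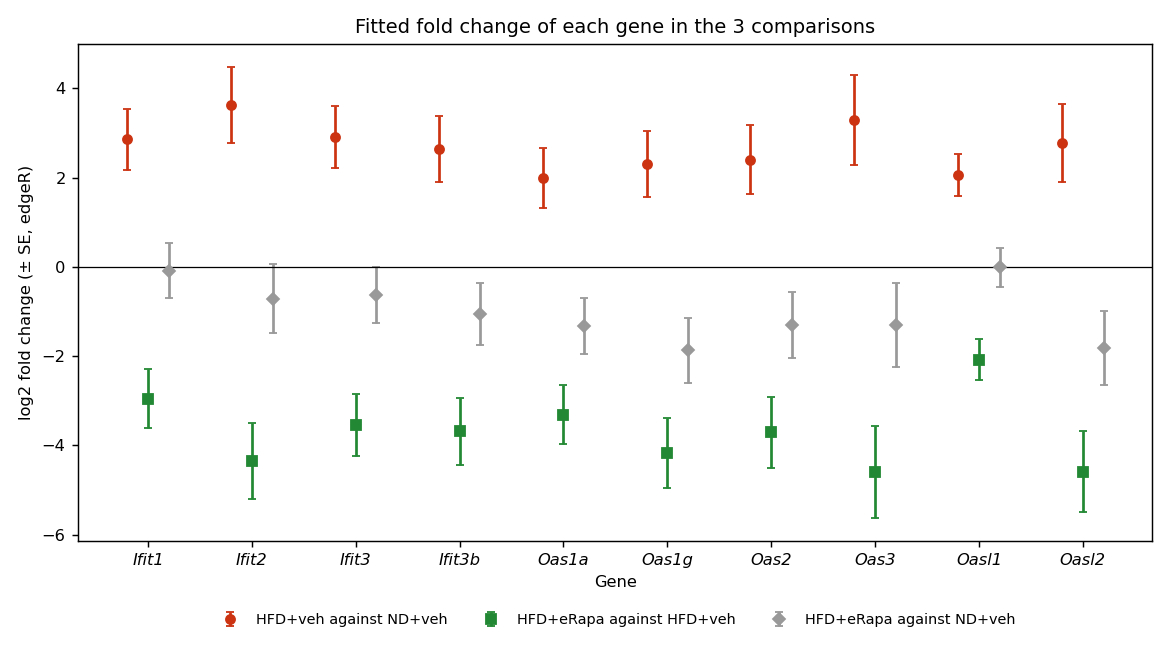
Fitted log2 fold change of each gene (y axis, ± SE, edgeR) for HFD+veh against ND+veh (circles), HFD+eRapa against HFD+veh (squares) and HFD+eRapa against ND+veh (diamonds). The circles lie between 1.99 and 3.63, the squares between -4.60 and -2.08, and the diamonds between -1.87 and -0.01.

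Among the Ifit genes, Ifit1, which binds RNA caps that lack methylation, ranged in ND+veh from 3.01 to 90.3 CPM with a median of 5.69. In HFD+veh it ranged from 17.2 to 244 CPM (median 136), and in HFD+eRapa from 6.86 to 31.7 CPM (median 14.4). Apart from replicate 4, ND+veh reached 13.4 CPM, all 9 HFD+eRapa animals were above the ND+veh median, and 6 of the 9 were below every HFD+veh animal. The log2 fold change of Ifit1 was 2.86 ± 0.68 (SE) with HFD (adjusted p = 0.00582, edgeR) and -2.95 ± 0.66 with eRapa under HFD (adjusted p = 0.0025, edgeR).

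Ifit2, a partner of Ifit3 in the antiviral Ifit complex, differed widely among HFD+veh animals, the highest being 69.9 times the lowest. It was at 0.454 to 20.3 CPM in ND+veh (median 2.73), 3.97 to 277 CPM in HFD+veh (median 38.0) and 0.788 to 8.16 CPM in HFD+eRapa (median 3.24). The highest value, 277 CPM, belonged to HFD+veh replicate 6, and the next animal was at 93.5 CPM. The log2 fold change with HFD was 3.63 ± 0.86 (SE; adjusted p = 0.00544, edgeR) and 2.63 without that library (adjusted p = 0.0267). Under HFD, eRapa lowered Ifit2 by -4.35 ± 0.85 on the log2 scale (adjusted p = 0.001, edgeR), and by -3.34 without HFD+veh replicate 6.

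Ifit3 ranged from 2.10 to 87.5 CPM in ND+veh (median 6.87), 16.8 to 272 CPM in HFD+veh (median 157) and 5.74 to 19.6 CPM in HFD+eRapa (median 10.5). Ifit3b, its close copy, ranged from 0.681 to 31.6 CPM (median 1.92), 3.66 to 63.4 CPM (median 47.7) and 1.24 to 5.53 CPM (median 2.20) in the same order. In both genes 8 of 9 HFD+eRapa animals were below every HFD+veh animal. Reads of this pair can be confused: 41.1% of the 75-base words of the Ifit3 transcript and 35.7% of those of Ifit3b were found in the other. The count ratio of Ifit3 to Ifit3b had a median of 4.04 in ND+veh, 3.62 in HFD+veh and 4.37 in HFD+eRapa. Shared reads may have been split between the pair or left out of the counts, so the level of each gene is uncertain.

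Of the Oas1 genes, Oas1a, an active synthetase, ranged from 0.624 to 48.4 CPM in ND+veh (median 5.37). It was at 13.3 to 79.7 CPM in HFD+veh (median 58.2) and at 1.30 to 8.19 CPM in HFD+eRapa (median 4.39). Its HFD+veh and HFD+eRapa animals were thus fully separated, as were those of Oas1g, with 3.84 to 34.2 CPM (median 23.2) against 0.247 to 2.23 CPM (median 1.08). Oas1g in ND+veh spanned 0.17 to 19.6 CPM (median 1.01). This pair shares 47.6% of the 75-base words of the Oas1a transcript and 44.6% of those of Oas1g, so the level of each is uncertain as well. With HFD, the log2 fold change was 1.99 ± 0.66 for Oas1a (SE; adjusted p = 0.0308, edgeR). It was 2.31 ± 0.75 for Oas1g (adjusted p = 0.0275). Both calls with HFD were lost without HFD+veh replicate 6 (adjusted p = 0.0794 for Oas1a and 0.0673 for Oas1g, edgeR).

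Oas2 and Oas3, the synthetases with several catalytic-type units, had the lowest mean levels per length (FPKM) in all groups. Oas2 ranged from 0.227 to 13.4 CPM in ND+veh (median 1.86), 1.59 to 43.2 CPM in HFD+veh (median 10.5) and 0.186 to 3.91 CPM in HFD+eRapa (median 1.92). Oas3 ranged from 0.114 to 13.9 CPM (median 0.731), 1.32 to 85.4 CPM (median 12.8) and 0 to 3.17 CPM (median 0.859) in the same order. HFD+eRapa replicates 6 and 8 had no Oas3 count, and a count of 0 allows up to 0.169 and 0.185 CPM in these libraries (3 counts, counting error only). Oas3 fell with eRapa by -4.60 ± 1.03 on the log2 scale (SE; adjusted p = 0.00255, edgeR), but 4 of 9 HFD+eRapa animals still overlapped HFD+veh. With the replicate number as a block this call was lost (-3.67, adjusted p = 0.056). Without HFD+veh replicate 6 the rise of Oas3 with HFD was 2.76 (adjusted p = 0.0666, edgeR) and that of Oas2 2.15 (adjusted p = 0.0698), neither called.

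Oasl1, an Oas-like protein without synthetase activity that restrains translation of Irf7, had the smallest SD of log2 CPM of the 10 genes in each group (1.15 in ND+veh, 0.92 in HFD+veh and 0.296 in HFD+eRapa). It ranged from 6.97 to 77.2 CPM in ND+veh (median 10.2), 24.6 to 165 CPM in HFD+veh (median 68.4) and 13.8 to 27.3 CPM in HFD+eRapa (median 18.1). In HFD+eRapa its highest animal was only 1.99 times its lowest. Its log2 fold change was 2.07 ± 0.47 with HFD (SE; adjusted p = 0.00435, edgeR) and -2.08 ± 0.45 with eRapa (adjusted p = 0.00218). Oasl2, which retains synthetase activity in mouse, ranged from 0.568 to 59.9 CPM in ND+veh (median 2.81), 9.52 to 160 CPM in HFD+veh (median 77.5) and 0.338 to 5.93 CPM in HFD+eRapa (median 2.86). Its HFD+veh and HFD+eRapa animals did not overlap, and eRapa lowered it by -4.59 ± 0.91 (SE; adjusted p = 0.00109, edgeR).

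**Figure D2:**
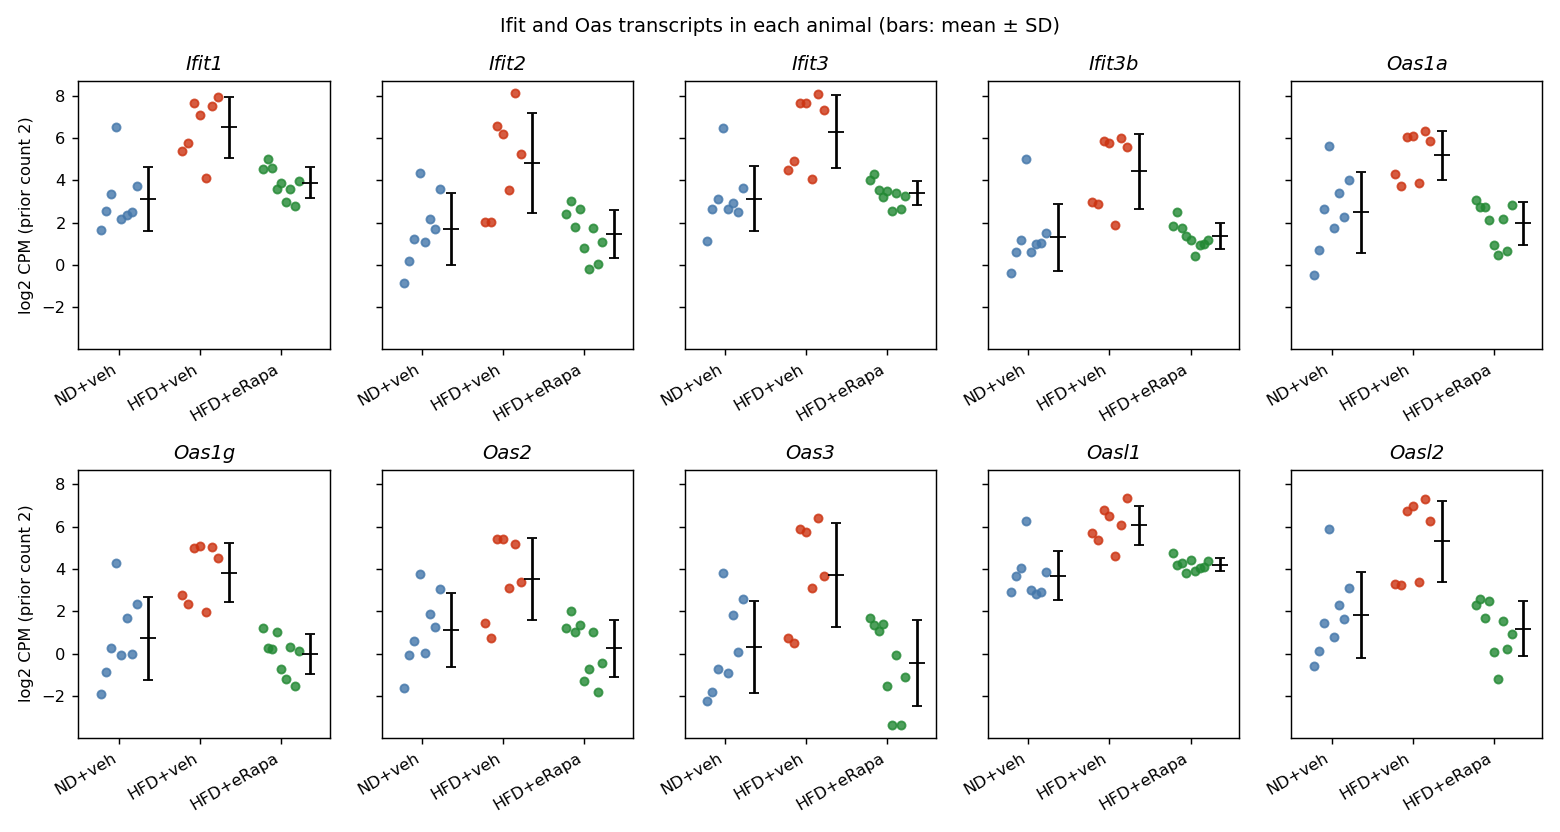
Log2 CPM (y axis, prior count of 2) of the 10 genes in each of the 24 animals (points) by group, with the group mean ± SD at the right of each set. ND+veh replicate 4 is the highest animal of its group in each panel, and all 9 HFD+eRapa animals lie below the HFD+veh median in each panel.

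Compared per length, the genes kept a similar but not identical order. FPKM (fragments per kilobase of transcript per M mapped) in HFD+veh was highest for Ifit3 at 80.1 ± 67.4 (SD, n = 7), followed by Ifit1 at 48.1 ± 33.6 and Oasl1 at 38.5 ± 22.1. Oas3 at 6.57 ± 7.06 and Oas2 at 4.89 ± 4.51 were last. In HFD+eRapa, Oasl1 came first at 8.29 ± 2.13 FPKM (SD, n = 9) and Oas3 last at 0.239 ± 0.221. In ND+veh, Ifit3 at 11.8 ± 22.2 FPKM (SD, n = 8) and Oasl1 at 10.5 ± 15.1 came first, again with Oas2 and Oas3 at the end. Many neighbours in this order did not differ beyond their spread. Ifit3 exceeded Oasl1 in 2 of 8 ND+veh animals, and by median Oasl1 led there with 4.86 against 3.75 FPKM. Further, Oasl2 exceeded Oas1a in 3 of 7 HFD+veh animals, and Ifit2 exceeded Oas1g in 1 of 7. Steps that held in every animal were Ifit2 over Oas2 and Oas2 over Oas3 in ND+veh, Oas1a over Ifit3b and Oas1g over Oas3 in HFD+veh, and Ifit1 over Oas1a, Oas1a over Ifit3b and Oas2 over Oas3 in HFD+eRapa.

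**Figure D3:**
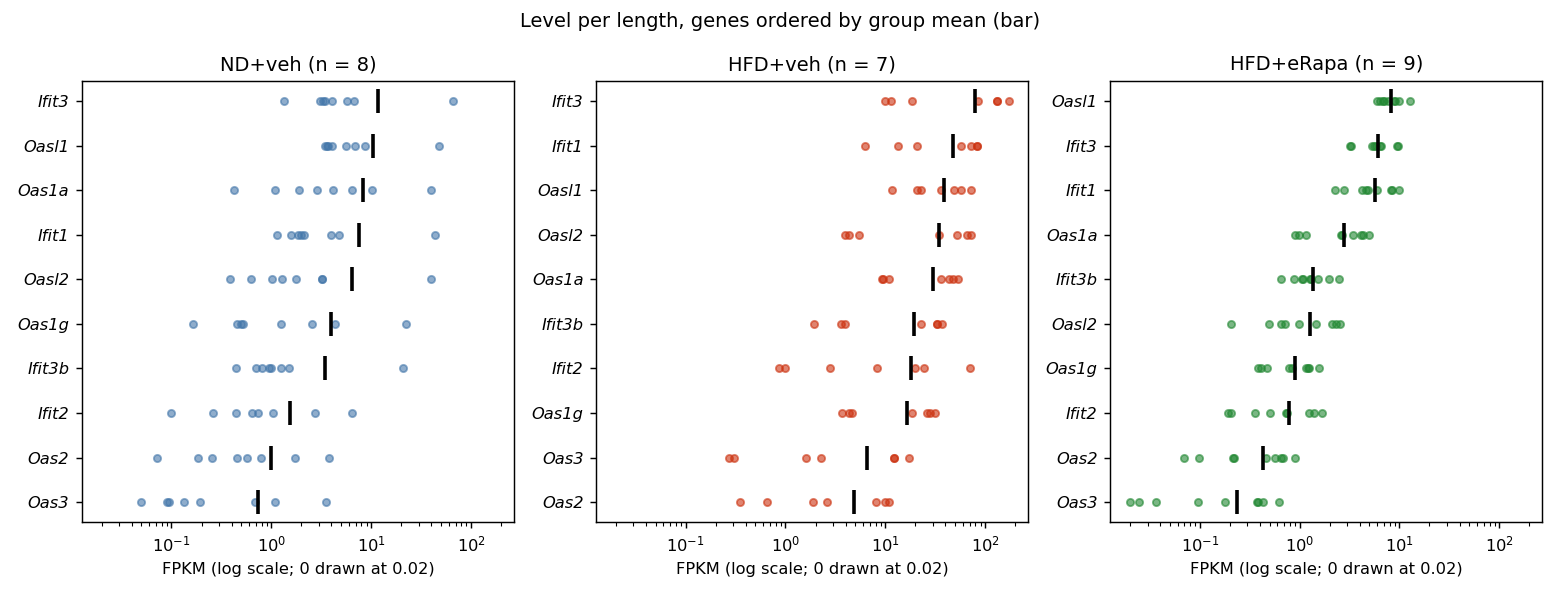
FPKM (x axis, log scale, values of 0 drawn at 0.02) of the 10 genes in each animal (points), ordered by the group mean (bar), in ND+veh, HFD+veh and HFD+eRapa. By mean, Ifit3 leads in HFD+veh and Oasl1 in HFD+eRapa, in ND+veh Ifit3 leads by mean and Oasl1 by median, and Oas2 and Oas3 close the order in all groups.

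The 7 HFD+veh animals did not respond alike. Replicates 3, 4, 6 and 7 held the 4 highest values of every gene, and replicates 1, 2 and 5 the 3 lowest. Summed over the 10 genes, replicates 3, 4, 6 and 7 were at 977, 877, 1259 and 835 CPM, and replicates 1, 2 and 5 at 168, 167 and 119 CPM. In ND+veh, 7 of the 8 animals lay between 15.5 and 98.3 CPM and replicate 4 at 462 CPM, and in HFD+eRapa all 9 lay between 32.9 and 103 CPM. Every HFD+veh animal was therefore above every HFD+eRapa animal in this sum, and above 7 of the 8 ND+veh animals, while replicates 3, 4, 6 and 7 were also above ND+veh replicate 4.

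The genes also shifted against each other among HFD+veh animals. Replicate 7 had the highest Ifit1 (244 CPM) and Oasl1 (165 CPM), but only 38.0 CPM of Ifit2, 10.5 CPM of Oas2 and 12.8 CPM of Oas3. Replicate 6 had 277 CPM of Ifit2 and 85.4 CPM of Oas3, the highest of all animals, but 68.4 CPM of Oasl1. The FPKM ratio of Ifit1 to Ifit2 accordingly ran from 1.03 in replicate 6 to 20.9 in replicate 2, and that of Oasl1 to Oas3 from 2.08 in replicate 6 to 82.5 in replicate 1. Replicates 1 and 2, the lowest for Ifit2, Oas2 and Oas3, were 2.85 and 3.22 above the ND+veh median in log2 CPM of Ifit1, but 0.50 and -0.18 from it in Oas2.

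**Figure D4:**
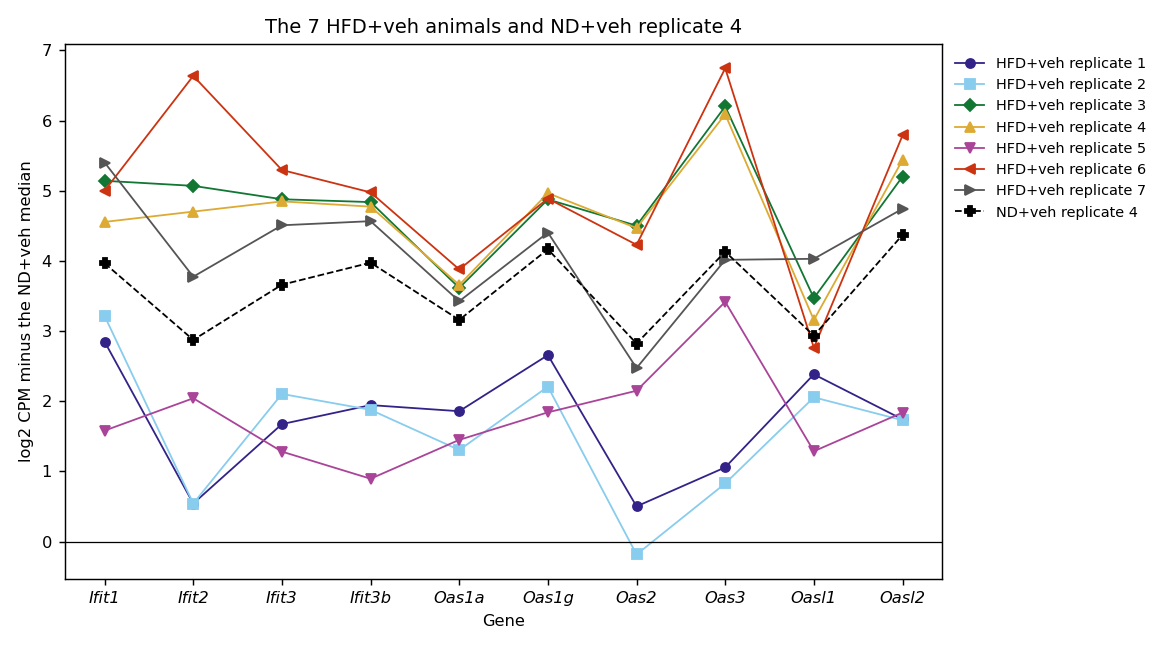
Log2 CPM of each gene minus its ND+veh median (y axis) in the 7 HFD+veh animals (solid lines) and in ND+veh replicate 4 (dashed line). Replicates 3, 4, 6 and 7 have medians over the 10 genes of 4.22 to 4.99, replicates 1, 2 and 5 of 1.71 to 1.80, and ND+veh replicate 4 of 3.81.

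Some macrophage, neutrophil, lymphocyte and cholangiocyte markers were called higher with HFD and some lower with eRapa, beside 16.0% and 21.1% of all genes tested. The other cell types followed this in part or not at all. With HFD, 4 of 11 macrophage markers were called higher (median log2 fold change of 2.09), and under HFD eRapa lowered 9 of 11 (median -2.70). All 6 endothelial and all 5 stellate cell markers were called lower with eRapa, while none was called with HFD. Of 3 tested neutrophil markers, 2 were called higher with HFD and 2 lower with eRapa. Of 2 tested lymphocyte markers the count was 1 and 1. All 3 tested cholangiocyte markers were called higher with HFD and 1 lower with eRapa, and all 3 red cell markers were called higher with HFD and none lower with eRapa. Of 8 hepatocyte markers, 2 were called lower with HFD and 1 higher with eRapa, beside 1366 and 1507 of the 13847 genes tested. Between HFD+eRapa and ND+veh, 4 of 5 stellate cell markers (median log2 fold change of -1.66) and 1 of 8 hepatocyte markers were called lower. In that comparison 1 of 3 tested cholangiocyte and 2 of 3 red cell markers were called higher. No macrophage, endothelial, neutrophil or lymphocyte marker was called there, beside 906 genes lower and 959 higher of all tested. The 3 plasmacytoid dendritic cell markers had too few counts to be tested, with a summed CPM of at most 1.02 outside HFD+veh and a highest value of 13.4 CPM in HFD+veh replicate 6. The 11 macrophage, 6 endothelial and 5 stellate cell markers were above 0 in every library. With a score of 16 immune markers as a covariate, the log2 fold changes of the 10 genes ran from 0.21 to 2.04 with HFD, with 1 call (Oasl1, 1.79, adjusted p = 0.0307, edgeR). With the same covariate they ran from -2.56 to -1.16 with eRapa, with 1 call (Oas1g, -2.56, adjusted p = 0.0251, edgeR). With a score of 14 endothelial, stellate cell and cholangiocyte markers, 7 of the 10 were called with HFD (0.82 to 2.40) and 1 with eRapa (-2.25 to -0.57, with Oas1g at -2.25, adjusted p = 0.0284, edgeR). Over all 13847 genes tested, 589 were called higher with HFD and 522 lower with eRapa under the immune score. Under the other score these counts were 1012 and 467. What part of the results these cells make up was not tested.

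Animal by animal, the macrophage sum and the sum of the 10 genes did not always move together. HFD+veh replicate 6 was highest in both, with 4713 CPM of macrophage markers. HFD+veh replicate 5 had 2704 CPM of macrophage markers but 119 CPM of the 10 genes, the lowest of its group. HFD+veh replicates 1 and 2 had 178 and 177 CPM of macrophage markers, below the ND+veh median of 262, yet 168 and 167 CPM of the 10 genes, above 7 of 8 ND+veh animals. ND+veh replicate 4 combined 462 CPM of the 10 genes with 429 CPM of macrophage markers, less than ND+veh replicates 6 and 8 (748 and 1278 CPM). Other animals ranked alike in both sums. In HFD+eRapa, replicate 2 was highest in both (1043 CPM of macrophage markers and 103 CPM of the 10 genes) and replicate 6 lowest in both (14.6 and 32.9 CPM). ND+veh replicate 1 was lowest of its group in both (45.6 and 15.5 CPM). The ratio of the sums ranged from 0.0441 in HFD+veh replicate 5 to 2.26 in HFD+eRapa replicate 6. A link between the sums was not tested.

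**Figure D5:**
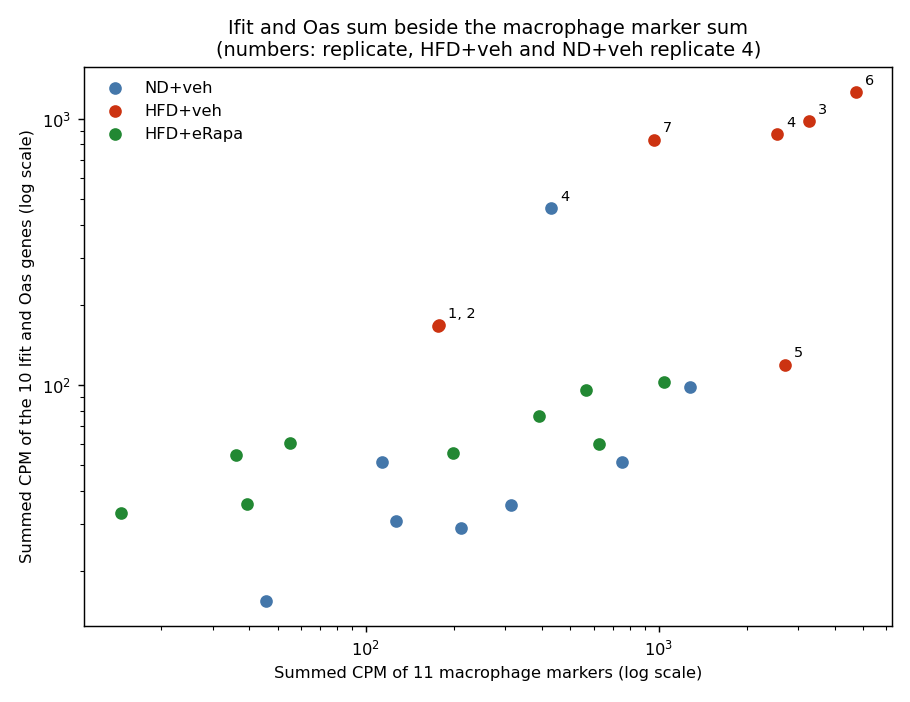
Summed CPM of the 10 Ifit and Oas genes (y axis, log scale) against the summed CPM of 11 macrophage markers (x axis, log scale) in 24 animals, with replicate numbers for HFD+veh and for ND+veh replicate 4. HFD+veh replicate 5 lies far right but low (2704 and 119 CPM), and HFD+veh replicates 1 and 2 lie left of it and higher (178 and 168 CPM in replicate 1).

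Upstream and parallel genes of the pathway were followed in a list of 63 symbols, of which 61 were in the tables and 52 were tested. Of these 52, 33 were called higher and 0 lower with HFD, and 0 higher and 40 lower with eRapa under HFD, beside 16.0% of all genes called higher and 21.1% called lower in these comparisons. The counts by role that follow stand beside the same shares. Between HFD+eRapa and ND+veh 0 were higher and 2 lower, where 6.54% of all genes were lower. This count ran from 1 to 3 when a library was left out. The median log2 fold changes were 1.09, -1.30 and -0.13, beside 0.05, -0.04 and -0.03 over all genes tested.

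The interferon genes themselves were almost without counts. Ifna1, Ifna2, Ifna4, Ifna5 and Ifnl3 had 0 counts in all 24 libraries. Ifnb1, the type I interferon that most cells can make, had 4 counts in 1 library and Ifnl2 1 count. Ifng, made by lymphocytes, had 45 counts in 10 libraries. None of the 8 interferon genes could be tested, and poly(A) libraries of this depth cannot show levels under these counts.

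For the type I receptor chains no difference was called. Ifnar1 was at 34.6 ± 4.21 CPM in ND+veh, 36.1 ± 5.32 in HFD+veh and 36.7 ± 3.15 in HFD+eRapa (SD, n = 8, 7 and 9). Its log2 fold change was 0.06 ± 0.09 (SE) with HFD and 0.03 ± 0.09 with eRapa, neither called. Ifnar2 was not called either, at -0.02 ± 0.11 and -0.11 ± 0.10. Of 5 tested receptor genes, 2 were called higher with HFD and 3 lower with eRapa.

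Of 9 genes for sensors of foreign RNA and DNA and for their adaptors, 7 were called higher with HFD and 8 lower with eRapa. The RNA helicase sensors Ddx58 (RIG-I) and Ifih1 (MDA5) rose with HFD by 1.44 ± 0.27 and 1.48 ± 0.29 (SE, log2). Tlr7, an endosomal receptor for single-stranded RNA, had the largest log2 fold change of the list with HFD, 3.80 ± 1.13 (adjusted p = 0.0186, edgeR). Its HFD+veh range was 1.15 to 193 CPM, with a median of 14.4.

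Of 8 signalling and transcription factors tested, 5 rose with HFD and 5 fell with eRapa. Irf9, the DNA-binding part of the complex that acts on the response element, rose with HFD by 0.83 ± 0.15 (SE, log2; adjusted p = 0.000628, edgeR) and fell with eRapa by -0.49 ± 0.14 (adjusted p = 0.0116). Irf7, the factor that amplifies interferon production, rose by 1.73 ± 0.54 (adjusted p = 0.0235) and fell by -2.30 ± 0.53 (adjusted p = 0.0029, edgeR). The Irf7 ranges in HFD+veh (77.2 to 315 CPM) and HFD+eRapa (19.4 to 65.7 CPM) did not overlap. Irf1 was 1 of the 2 genes of the list called between HFD+eRapa and ND+veh, at -0.41 ± 0.14 (adjusted p = 0.0488, edgeR). The other was Bst2 (tetherin, which holds budding virus at the cell surface), at -1.24 ± 0.24 (adjusted p = 0.00114). Bst2 itself was not called with HFD, at -0.09 ± 0.26.

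Usp18, which removes the ubiquitin-like Isg15 from proteins and dampens receptor signalling, rose with HFD by 1.87 ± 0.52 (SE, log2; adjusted p = 0.013, edgeR) and fell with eRapa by -2.22 ± 0.50 (adjusted p = 0.00275). Of 5 tested brakes on the pathway, 2 were called higher with HFD and 3 lower with eRapa.

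Among 22 other interferon effectors, 16 were called higher with HFD and 20 lower with eRapa. Ifi27l2a had the largest log2 fold change of these with HFD, 3.04 ± 0.98 (SE; adjusted p = 0.0265, edgeR). Ifi44 and the dynamin-like GTPase Mx1 had the largest falls of the list with eRapa, -4.12 ± 0.88 (adjusted p = 0.00195) and -4.10 ± 0.88 (adjusted p = 0.00196), with no overlap between groups. Mx1 was not called with HFD, at 2.26 ± 0.84 (adjusted p = 0.0505, edgeR).

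Of 8 relatives in or beside these clusters, Oas1b and Oas1c passed the filter. Oas1b, annotated as a polymorphic pseudogene, was not called with HFD (1.12 ± 0.49, SE, log2; adjusted p = 0.0938, edgeR) and fell with eRapa by -1.95 ± 0.49 (adjusted p = 0.00507). Oas1c rose with HFD, to 2.87-fold in mean CPM (adjusted p = 0.0126) and fell with eRapa by -2.15 ± 0.41 (adjusted p = 0.000733, edgeR). Their highest values were 6.73 and 6.11 CPM, against 34.2 CPM for Oas1g.

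Across the 24 libraries, the genes outside the 10 whose log2 CPM most resembled the mean z-score of the 10 were Ifi44 (r = 0.984), Shisa5 (r = 0.983), Gbp3 (r = 0.979), Slfn8 (r = 0.978) and Rsad2 (r = 0.976, Pearson). The libraries share groups, so these values describe likeness of pattern over the groups as much as among animals. Shisa5 was at 34.5 ± 22.9 CPM in ND+veh, 90.5 ± 38.9 in HFD+veh and 31.1 ± 6.36 in HFD+eRapa (SD, n = 8, 7 and 9). Rsad2 (viperin) was at 26.2 ± 49.2, 109 ± 86.7 and 13.1 ± 5.41 CPM in the same order.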

How the data were processed

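Poly(A) RNA of hepatocytes was analysed in 24 libraries, with groups and replicate numbers taken from the sample labels. The deposited counts are raw reads per gene that the authors made with STAR (2-pass, mm10, Gencode vM23), SAMtools and HTSeq 0.11.2. The sources do not say if strand was used in counting, which leaves overlapping genes uncertain. For FPKM, per the deposited tables and the study's methods, the authors ran Cufflinks. Positions came from Gencode M21 (GRCm38), in which 55240 of 55421 identifiers were found.

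Genes were kept with filterByExpr, scaled by TMM and tested with edgeR 4.0.16 in R 4.3.3 (glmQLFit, glmQLFTest) in a single fit of all 24 libraries without covariates. Benjamini-Hochberg adjustment ran over 13847 genes, and an adjusted p under 0.05 is termed a call. SE is the log2 fold change over the square root of F. CPM uses TMM-scaled library sizes, and log2 CPM a prior count of 2. The 10 genes, the pathway list, its naming rule and the marker lists were chosen with earlier results of these data known. The rule named, per comparison, up to 2 called pathway genes with the largest rise and up to 2 with the largest fall, besides Ifnb1, Ifnar1, Ifnar2, Irf7, Irf9 and Usp18, and the 5 genes most like the 10 in pattern. Ddx58, Ifih1 and the interferons other than Ifnb1 were named as examples after their values were seen.

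Same-group libraries differed by more than sampling noise (chi-square per degree of freedom of at least 12.3), so none was taken for a library deposited more than once. Nothing in the labels ties each to a separate mouse, so p-values measure the spread between these libraries, part of which may be technical. Counting limits cover counting error only. On simulated counts of 13847 genes, with 200 genes shifted 2-fold up or down in the HFD+veh libraries, edgeR recovered 145 and made 7 false calls for HFD+veh against ND+veh. Alternatives were DESeq2 1.42.0, limma 3.58.1 (voom, and log2 FPKM with pseudocounts of 1 and 0.1), DESeq2 size factors, no filter, at least 10 counts in every library, only the groups compared, both marker scores as covariates, the replicate number as a block, exact permutation tests, a log2 fold change of at least 1, and each library left out. Some genes of the pathway are not reported here.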

Additional observations from a re-analysis of the deposited data

Results flagged for a closer look

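In 4 of the 10 genes, ND+veh replicate 4 stood apart from the other 7 ND+veh animals by Dixon's criterion. Its log2 CPM was 6.50 for Ifit1 (next animal 3.75), 6.45 for Ifit3 (next 3.64), 4.99 for Ifit3b (next 1.53) and 6.27 for Oasl1 (next 4.06). The criterion was applied to 30 sets of values (10 genes in 3 groups), of which chance alone would mark about 1.5, and the genes are not independent of each other.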

How the results depend on the processing

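For HFD+veh against ND+veh, the number of the 10 genes called was 5 with no filter and 5 with at least 10 counts in every library (only 5 were then tested). It was 6 with only the groups compared, 1 with the immune score as covariate and 5 with exact permutation tests. Over all genes, 1899 of 30483, 1538 of 10754, 1433 of 13423, 589 of 13847 and 808 of 13847 were called higher in these settings, in the same order. Without these changes 2218 of 13847 were. It was 5 to 10 when a library was left out, with 5 without HFD+veh replicate 6 and 6 without HFD+veh replicate 4. For HFD+eRapa against HFD+veh the number was 5 with at least 10 counts (5 tested), 1 with the immune score and 1 with the endothelial, stellate cell and cholangiocyte score. It was 10 in all fits with a library left out. Over all genes, 1688 of 10754 were called lower with at least 10 counts, and 522 and 467 of 13847 with these scores. Without these changes 2925 of 13847 were. For HFD+eRapa against ND+veh, DESeq2 called 1, where it called 1128 of 30483 genes lower. The signs in this comparison changed as follows, none with a call. Ifit1 was 0.65 with voom, 0.18 and 0.80 with the immune and the other marker score, 0.45, 0.64 and 0.45 with limma on log2 FPKM (pseudocounts 1, 0.1 and 1 without filter), 0.77 in the permutation test and -0.27 to 1.26 with a library left out. Ifit3 was 0.13, 0.57 (other score), 0.07, 0.15, 0.07, 0.25 and -0.80 to 0.66 in the same order. Ifit3b was 0.11 (other score), 0.04 in the permutation test and -1.26 to 0.60 with a library left out. Ifit2, Oas2 and Oas3 were 0.91, 0.16 and 0.68 with the other score. Oasl1 was 0.02 with DESeq2, 0.02 with its size factors, 0.02 with no filter, 0.45 with voom, 0.09 and 0.34 with the scores, 0.24, 0.31 and 0.24 with limma, 0.52 in the permutation test and -0.14 to 0.83 with a library left out. Leaving out ND+veh replicate 4 and HFD+veh replicate 6 together, chosen after seeing the data, gave 10, 10 and 0 calls in the 3 comparisons, with 1.29 for Ifit1, 0.69 for Ifit3, 0.62 for Ifit3b and 0.85 for Oasl1 in the third. Of 13791 genes tested, 1179 were then called higher, 1998 lower and 2050 in either direction, in the same order. The causes were not tested.

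Replicate numbers are shared between groups but belong to different animals, and same-numbered libraries correlated at -0.66 to 0.73. With the replicate number as a block, 10, 9 and 0 of the 10 genes were called. Of 13847 genes tested, 1436 were then called higher, 1459 lower and 1575 in either direction, in the same order. Oas3 lost its call with eRapa (-3.67, adjusted p = 0.056), and against ND+veh Ifit1 was 0.89, Ifit2 0.25, Ifit3 0.45, Ifit3b 0.23, Oas3 0.06 and Oasl1 0.50 with the block.

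By level per length, 6 of 10 genes kept their rank by median FPKM and 6 by CPM per kilobase in ND+veh, 4 and 5 in HFD+veh, and 7 by CPM per kilobase in HFD+eRapa. Depth limits statements on the interferon genes and on Oas3 in HFD+eRapa.

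Over all genes, 3584, 4432 and 1865 were called in the 3 comparisons. The first count was 1585 with a log2 fold change of at least 1, 1866 with voom, 2333 with only the groups compared, 1213 and 1912 with the immune and the other score, and 2207 and 1551 with limma on log2 FPKM (pseudocount 0.1, and 1 without filter). It was also 2106 without HFD+veh replicate 6, 2300 with both libraries left out, and 808 higher and 1005 lower by exact permutation tests. The second was 2284 with a log2 fold change of at least 1, 3347 with voom and 3593 with only the groups compared. It was 942 and 834 with the immune and the other score, and 2808 with limma on log2 FPKM (pseudocount 1, without filter). It was also 2809 with at least 10 counts in every library and 2532 with the replicate block. The third was 711 with a log2 fold change of at least 1, 2948 with the other score and 1101 without filter on FPKM. The shares of genes without overlap when a library was left out were added after seeing the data.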

Other observations

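Several relatives of the 10 genes had too few counts to be tested. Ifit1bl1, which lies between Ifit3 and Ifit3b on the opposite strand, had 671 counts in 20 libraries, of which 353 were in a single library. Ifit1bl2 had 219 counts in 18 libraries, and 5.19% of the 75-base words of the Ifit1 transcript were found in it. Of the Oas1 relatives, Oas1h had 34 counts in 12 libraries, Oas1d 3 counts, and Oas1e and Oas1f none.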
